A study of Homo sapiens with 6 samples.

Results

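The 36 genes described here encode proteins that make the ribosome in the nucleolus. They were given as a list of symbols, and each was found among the 23204 gene symbols of all 6 libraries. Where a symbol had several rows, which stand for transcript records, the row with the highest mean level was kept. The genes fall into proteins of the box C/D small nucleolar ribonucleoproteins (4 genes, FBL, NOP56, NOP58 and NHP2L1), proteins of the box H/ACA particles (4 genes, DKC1, NOP10, NHP2 and GAR1), their chaperone NOLC1, assembly factors of the small subunit (14 genes), assembly factors of the large subunit (9 genes), the RNA polymerase I group POLR1A, POLR1B and UBTF (3 genes), and LYAR, a nucleolar zinc-finger protein.

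RNA polymerase I transcribes a long precursor of the ribosomal RNAs in the nucleolus. Small nucleolar RNAs (snoRNAs) in box C/D particles guide methylation of this precursor, and those in box H/ACA particles guide its pseudouridylation. Assembly factors, among them those of the small-subunit processome, then fold and cleave it into the RNAs of the 2 subunits. Cells that grow and divide quickly, such as the line used here, are known for high levels of these proteins.

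The study asked how DDX3X, a DEAD-box RNA helicase mutated in medulloblastoma (MB), acts on messenger RNAs. Libraries prepared from total RNA of HEK293T cells, a human embryonic kidney line, were sequenced, 1 library per group. For depletion, cells received a control siRNA or a DDX3X siRNA for 48 h. For overexpression, cells received 5 µg of plasmid for GFP alone, or for a GFP fusion of DDX3X that was either wild type (GFP-WT DDX3X) or carried T275M (GFP-DDX3X T275M) or G302V (GFP-DDX3X G302V), were kept for 32 h and were sorted for GFP fluorescence. The siRNA groups have no sort in their labels. The endogenous DDX3X gene was left in place in the plasmid groups, expression was transient, and every value comes from a single line. The labels also mention plasmid treatment from 30 h, and a figure legend of the study names another mutant in place of T275M. The labels are the basis for calling that library T275M. The labels call the cell type neuronal. Of 13 neuronal marker genes, 7 stayed under 1 RPKM (reads per kilobase of row, scaled to the library's total reads) in every library and 3 never passed 0.02 RPKM, whereas NEFL and NEFM were at 10 RPKM or more in all libraries. Of 4 epithelial markers, KRT18 alone was at 10 RPKM or more throughout. The summed neuronal list ranged from 641 RPKM with wild-type DDX3X to 838 RPKM with GFP, and its part in the results below was not tested. Library depth, recovered from the values, ranged from 43720000 reads (G302V) to 180870000 reads (DDX3X siRNA).

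DDX3X itself was at 119 RPKM with GFP, 2894 RPKM with wild type, 3279 RPKM with T275M, 1906 RPKM with G302V, 107 RPKM with control siRNA and 31.3 RPKM with DDX3X siRNA. The siRNA library thus held 29.3% of the control level, a difference of -1.74 on the log2 scale, and the plasmid libraries stood 4.60 (wild type), 4.78 (T275M) and 3.99 (G302V) above GFP. With 1 library per group no difference has a replicate check, and no p-value is given. Differences below are of log2(RPKM + 1), and the brackets hold exact 95% intervals that cover counting error only. Scaling by the median ratio of all genes, in place of the library total, shifts every gene of a comparison by nearly the same amount: for the 36 genes, by a median of 0.07 in the siRNA pair, by -0.09 for wild type and T275M and by -0.04 for G302V against GFP, and by 0.05 for G302V against either wild type or T275M. Differences smaller than these depend on the scaling, and intervals near 0 do too. In bulk RNA a smaller share of expressing cells and less RNA per cell cannot be told apart. Unless stated otherwise, 6 levels in a row follow the order GFP, wild type, T275M, G302V, control siRNA and DDX3X siRNA.

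All 36 genes passed the filter on low values (1 RPKM and 10 reads in either library) in all 8 comparisons. Mean levels ran from 10.5 RPKM for UTP20 to 384 RPKM for NHP2, with a median of 64.7 RPKM, and 1672 to 84930 reads lay behind each single value. Each gene varied little: the highest library exceeded the lowest by 1.09 to 1.51 times, with a median of 1.24 times. Together the 36 genes took 0.750% of all GFP reads, 0.701% of wild-type reads, 0.654% of T275M reads, 0.648% of G302V reads, 0.696% of control siRNA reads and 0.663% of DDX3X siRNA reads. The 95% Wilson intervals of T275M (0.652% to 0.656%) and G302V (0.646% to 0.651%) did not reach that of wild type (0.699% to 0.703%), and the latter lay below GFP (0.748% to 0.752%). These intervals cover counting error only, not differences between libraries. Those of the 2 controls, GFP and control siRNA (0.694% to 0.698%), did not overlap either. Among the 4 plasmid libraries, GFP was highest for 27 of 36 genes, and the lowest was T275M for 17, G302V for 17 and wild type for 2. Both mutants were below both GFP and wild type for 29 genes. Shares of all genes with these orders were not worked out, so the counts describe the 36 genes only.

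**Figure D1:**
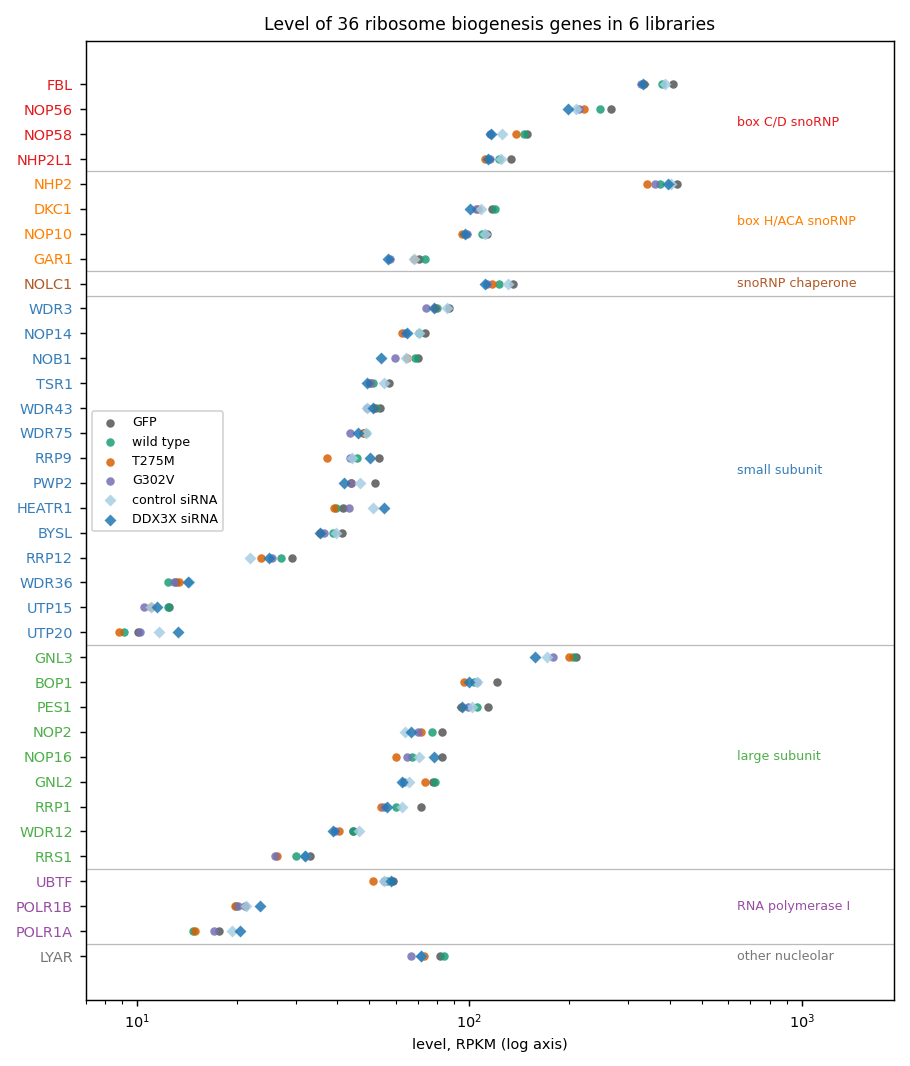
Level of each gene in RPKM (horizontal log axis) in the 6 libraries (circles, plasmid libraries; diamonds, siRNA libraries), 1 library per point, ordered by group of genes. Mean levels run from 10.5 RPKM (UTP20) to 384 RPKM (NHP2), and GFP (dark circles) is the highest plasmid library for 27 of 36 genes. No share over all genes was worked out for this count.

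To ask how depletion of endogenous DDX3X compares across the gene groups, the DDX3X siRNA library was set against control siRNA. All 9 genes grouped here under the snoRNA particles and their chaperone were lower, and all 3 genes of the RNA polymerase I group were higher. Of genes with a mean of 10 RPKM or more, 57.0% were lower. Under median-ratio scaling 8 of the 9 were lower, NHP2 being the exception, and the 3 stayed higher. NOP56, 1 of the 8, was then at -0.01, within its counting error. RRP9, which marks U3 snoRNA but was grouped with the small-subunit factors, was higher at 0.17, or 0.24 under median-ratio scaling. The median was -0.13 for box C/D proteins, -0.16 for box H/ACA proteins, -0.04 for small-subunit factors, -0.08 for large-subunit factors and 0.07 for the polymerase group. Over the 36 genes the median was -0.08, against -0.02 over the 12694 genes tested and -0.04 over the 6943 of them with a mean of 10 RPKM or more. The interval lay below 0 for 22 of 36 genes, where 46.5% of genes of 10 RPKM or more did so, and above 0 for 10, where 33.4% did. None reached 1.3-fold in either direction, against 4.71% of tested genes that were lower by that much and 5.06% that were higher, and none reached 2-fold, against 0.110%. The order of the gene groups is a description of this pair of libraries. Median-ratio scaling brought the median of the 36 genes to -0.01, that of box C/D proteins to -0.05, of box H/ACA proteins to -0.08, of large-subunit factors to -0.01 and of the polymerase group to 0.15 (0.145), and turned that of small-subunit factors to 0.03.

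With wild-type DDX3X against GFP, 30 of 36 genes were lower (background 50.6% of genes of 10 RPKM or more). The median was -0.09 against 0.05 over the 12915 genes tested and 0.00 over genes of 10 RPKM or more. The interval lay below 0 for 25 genes (background 33.8%) and above 0 for 2 (background 32.9%), GAR1 and LYAR. No gene reached 1.3-fold lower (background 0.883%), 1.3-fold higher (background 6.64%) or 2-fold (background 0.248%). NOP16 came nearest, at -0.29. Median-ratio scaling moved the median to -0.18 and put all 36 genes below GFP, so the 6 genes above 0 here (GAR1, DKC1, WDR75, GNL2, WDR12 and LYAR) change sign with the scaling.

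With T275M against GFP, 35 of 36 genes were lower (background 52.3% of genes of 10 RPKM or more). The median was -0.20 against 0.07 over the 12912 genes tested and -0.01 over those of 10 RPKM or more. The interval lay below 0 for 33 genes, with a background of 38.1%, and above 0 for none, with a background of 33.6%. RRP9 (-0.51), NOP16 (-0.45) and RRP1 (-0.39) were 1.3-fold lower, 3 of 36 genes against 1.97% of all genes, and none was 1.3-fold higher, against 8.66%. No gene reached 2-fold (background 0.372%). WDR36, a subunit of the processome, was the single gene above GFP, at 0.02 [-0.04 to 0.08], and it too was below GFP under median-ratio scaling.

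With G302V against GFP, 34 of 36 genes were lower (background 58.2% of genes of 10 RPKM or more). The median was -0.22 against 0.03 over the 12775 genes tested and -0.04 over those of 10 RPKM or more. Intervals below 0 were found for 32 genes (background 41.3%) and an interval above 0 for HEATR1 alone (background 28.1%). None of the genes passed 1.3-fold lower (background 1.74%), 1.3-fold higher (background 5.58%) or 2-fold (background 0.305%). The shift was therefore spread over most genes at a small size. Median-ratio scaling placed 3 genes (NOP58, RRP1 and RRS1) at 1.3-fold lower here and 8 with T275M. The share of all genes past 1.3-fold was not worked out under that scaling, and the backgrounds above do not apply to it. All 3 constructs share the GFP library as control, so their counts are not independent. All 3 were below GFP for 27 genes, and the interval lay below 0 with both mutants for 30 genes. The share of all genes that met these joint conditions was not worked out, so the counts describe the 36 genes only.

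**Figure D2:**
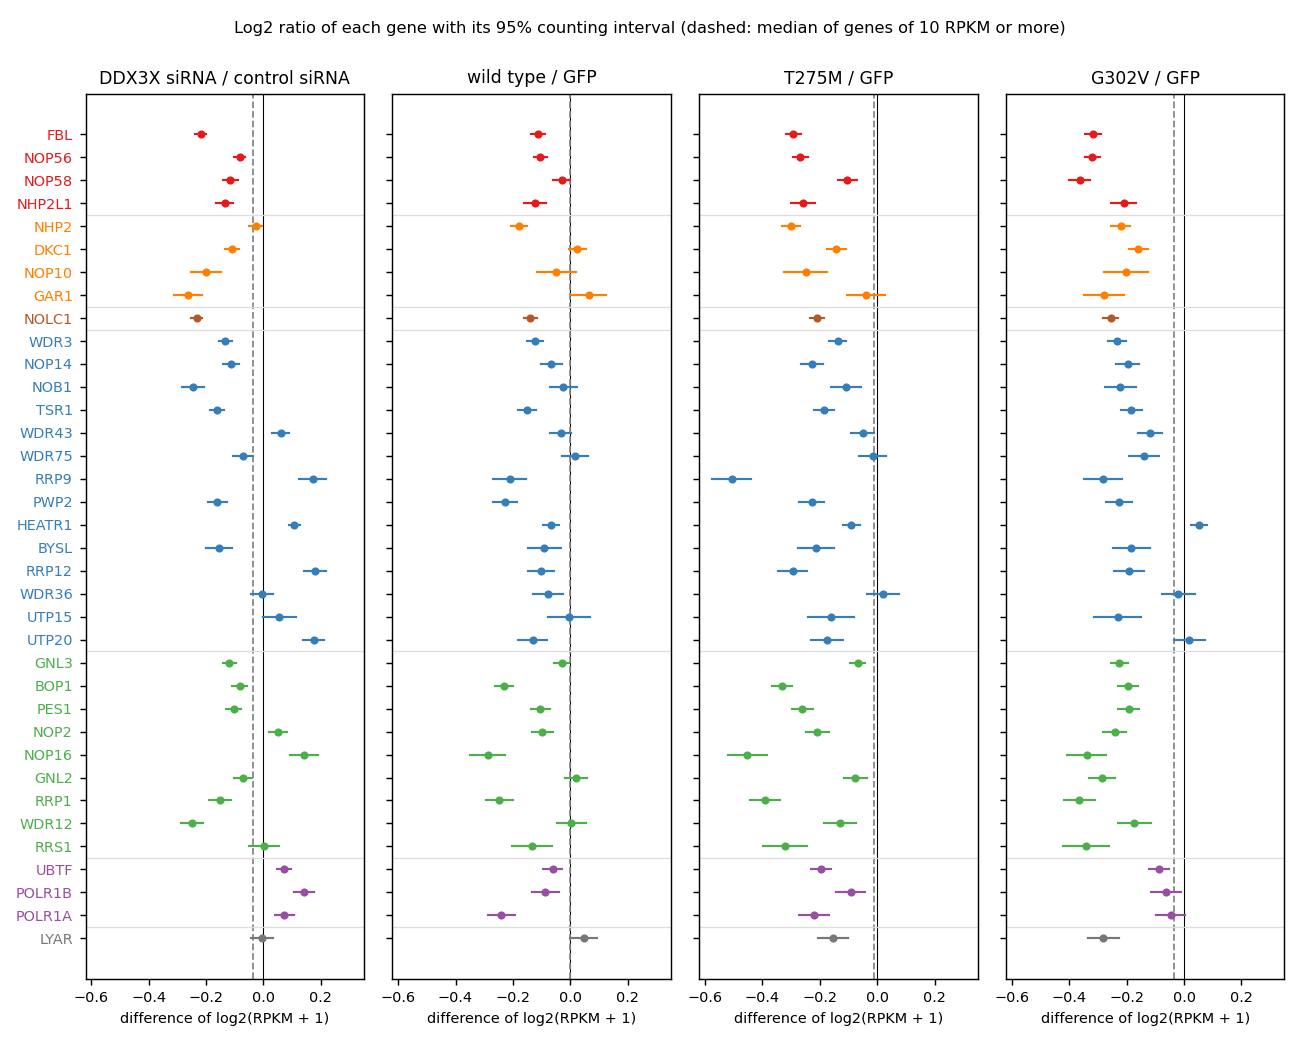
Difference of log2(RPKM + 1) for each gene (points) with its 95% counting interval (bars) in 4 comparisons, colored by gene group; the dashed line is the median of genes of 10 RPKM or more. With T275M and G302V, 35 and 34 of 36 points lie left of 0, whereas with DDX3X siRNA 24 do and the 3 polymerase genes lie right of 0. Of genes of 10 RPKM or more, 52.3% (T275M), 58.2% (G302V) and 57.0% (DDX3X siRNA) were below 0.

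To ask whether the mutants differ from wild-type DDX3X, libraries with a similar plasmid were compared directly. T275M was below wild type for 34 of 36 genes (background 55.7% of genes of 10 RPKM or more). The median was -0.12, against 0.00 over all genes tested and -0.01 over those of 10 RPKM or more. Here the interval lay below 0 for 26 genes (background 30.5%) and above 0 for WDR36 alone (background 23.8%). No gene was 1.3-fold lower (background 0.701%), 1.3-fold higher (background 0.586%) or past 2-fold (background 0.0771%). G302V was below wild type for 29 genes (background 58.4% of genes of 10 RPKM or more). The median was -0.11, against -0.03 over all genes and -0.04 over those of 10 RPKM or more. Median-ratio scaling brought this to -0.06, with 25 genes below wild type. For 26 genes the interval lay below 0 (background 41.8%) and for 4, namely UTP20, HEATR1, WDR36 and POLR1A, it lay above 0 (background 29.0%). Again none was 1.3-fold lower (background 4.72%), 1.3-fold higher (background 2.15%) or past 2-fold (background 0.185%). DDX3X itself differed from wild type by 0.18 with T275M and by -0.60 with G302V on the log2 scale, and the part of the DDX3X level in these values was not tested.

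Between the mutants the genes were split. G302V against T275M gave a median of -0.01, with 11 genes whose interval lay below 0 (background 33.1%) and 11 above 0 (background 25.6%). No gene was 1.3-fold lower (background 3.40%), 1.3-fold higher (background 0.766%) or past 2-fold (background 0.178%). The lowest were NOP58 at -0.26, GAR1 at -0.24 and GNL2 at -0.21, and the highest were RRP9 at 0.22, UTP20 at 0.19 and POLR1A at 0.17. The sign of the median depends on the scaling, which gave 0.04 by median ratio.

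GFP and control siRNA, the controls of both arms, were not alike. GFP was higher for 29 of 36 genes and lower for 7, where 42.4% of genes of 10 RPKM or more were lower. The median was 0.10 against 0.01 over the 12730 genes tested and 0.03 over those of 10 RPKM or more. The interval lay above 0 for 25 genes (background 41.9%) and below 0 for 5 (background 30.0%), and RRP12, at 0.40, was the single gene 1.3-fold higher (background 3.83%). None was 1.3-fold lower (background 5.66%) or past 2-fold (background 0.503%). Plasmid, sorting and time differ together between these libraries and cannot be told apart.

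**Figure D3:**
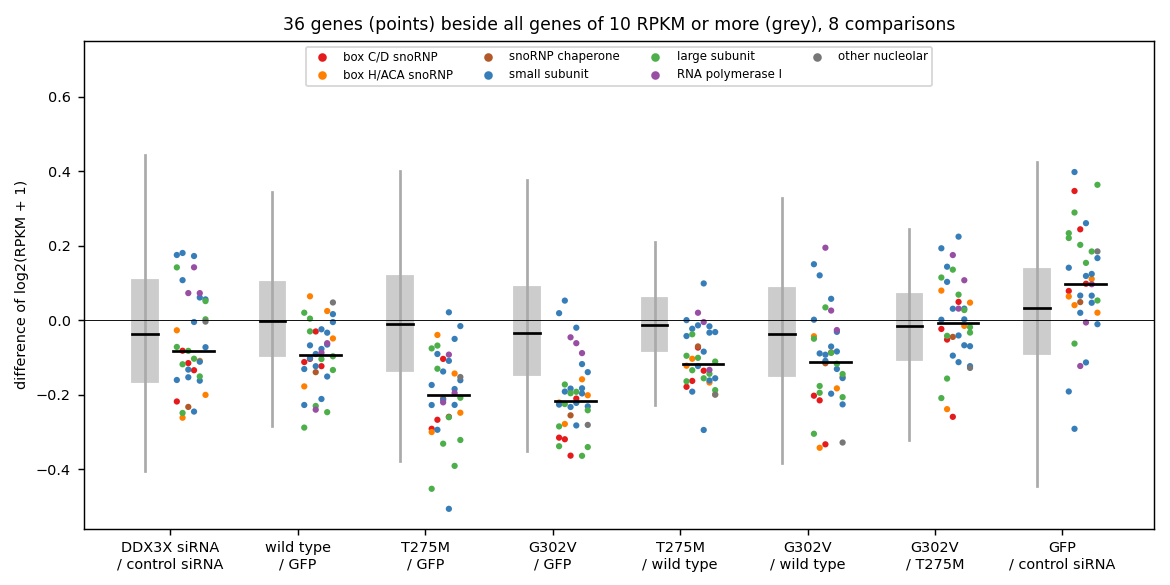
Difference of log2(RPKM + 1) in 8 comparisons: points are the 36 genes colored by group with their median as a black line, and the grey boxes and lines hold the middle 50% and 95% of genes of 10 RPKM or more with their median. The median of the 36 genes lies at -0.20 (T275M) and -0.22 (G302V) against GFP, under the grey medians of -0.01 and -0.04, and at 0.10 for GFP against control siRNA.

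The box C/D particle is built on NHP2L1, which binds the folded snoRNA, on NOP56 and NOP58, which form its scaffold, and on FBL, the methyltransferase. FBL (chr19:40325098-40337019 of GRCh37, minus strand) was at 410.0, 379, 335, 329, 388 and 334 RPKM. The libraries of the 2 mutants and of DDX3X siRNA were the lowest 3 and GFP the highest, with differences of -0.11 (wild type), -0.29 [-0.32 to -0.26] (T275M), -0.32 [-0.34 to -0.29] (G302V) and -0.22 [-0.24 to -0.20] (DDX3X siRNA). NOP56 (chr20:2633239-2639039, plus strand) was at 266, 248, 221, 213, 209 and 198 RPKM. Each plasmid library was above both siRNA libraries, the GFP library by 0.35 over control siRNA. The mutants differed from GFP by -0.27 (T275M) and -0.32 (G302V). Under median-ratio scaling both mutants were at -0.36 against GFP and GFP at 0.36 over control siRNA, so mutants and control siRNA nearly tied. NOP58 (chr2:203130459-203168384, plus strand) was at 149, 146, 138, 115, 126 and 116 RPKM, so that G302V was the low plasmid library, at -0.36 [-0.40 to -0.33] against -0.10 with T275M. NHP2L1, now named SNU13 (chr22:42069937-42086508, minus strand), was at 134, 123, 111, 115, 125 and 114 RPKM, with the mutants at -0.26 and -0.21. Summed, the 4 genes went from 959 RPKM for GFP to 895 for wild type, 806 for T275M and 773 for G302V, and from 848 with control siRNA to 761 with DDX3X siRNA.

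In the box H/ACA particle DKC1, or dyskerin, is the pseudouridine synthase and NOP10, NHP2 and GAR1 are its partners. NHP2 (chr5:177576464-177580895, minus strand) was the most abundant of the 36 genes, at 423, 374, 343, 362, 405 and 397 RPKM. It was lowest with T275M (-0.30 [-0.33 to -0.27]) and little different between the siRNA libraries (-0.03), where median-ratio scaling turned its sign. GAR1 (chr4:110736666-110745896, plus strand) showed another pattern, with 70.3, 73.5, 68.3, 57.8, 68.3 and 56.8 RPKM. G302V and DDX3X siRNA were its low libraries, at -0.28 [-0.35 to -0.21] and -0.26 [-0.31 to -0.21], while T275M was at -0.04 [-0.11 to 0.03] against GFP, or -0.13 under median-ratio scaling. DKC1 (chrX:153991017-154005964, plus strand) was at 117, 119, 106, 105, 108 and 100.4 RPKM, and NOP10 (chr15:34631360-34635381, minus strand) at 113, 109, 95.1, 98.3, 112 and 97.0 RPKM. In both, the 2 mutants were below GFP and wild type. Wild type was at 0.02 for DKC1 and -0.05 for NOP10 against GFP, within the counting error, but at -0.07 and -0.14, beyond it, under median-ratio scaling. NOLC1 (chr10:103911933-103923628, plus strand), a phosphoprotein that carries both kinds of particle, was at 135, 123, 117, 113, 131 and 111 RPKM, or -0.14, -0.21 and -0.26 against GFP and -0.23 with DDX3X siRNA.

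Among the small-subunit factors RRP9, the protein of the processome that marks U3 snoRNA, showed the widest change of the 36 genes in any comparison. RRP9 (chr3:51967445-51975920, minus strand) was at 53.4, 46.0, 37.3, 43.7, 44.4 and 50.2 RPKM. T275M was the lowest library, at -0.51 [-0.57 to -0.44] against GFP, and DDX3X siRNA was above its control, at 0.17 [0.12 to 0.22]. UTP20 (chr12:101673883-101780396, plus strand) and HEATR1 (chr1:236712305-236767816, minus strand), large scaffold proteins of the processome, also stood apart from the group. UTP20 was at 10.1, 9.11, 8.82, 10.2, 11.6 and 13.3 RPKM and HEATR1 at 41.7, 39.8, 39.1, 43.3, 51.3 and 55.3 RPKM. Both were highest with DDX3X siRNA (0.17 and 0.11 against control siRNA), and with G302V they were the only genes not below GFP (0.02 [-0.04 to 0.07] and 0.05 [0.02 to 0.08]), although median-ratio scaling put UTP20 below GFP. Their rows are long, at 9010 and 8484 bases. Genes of 10 RPKM or more with rows of 4000 bases or longer had medians of 0.07 with DDX3X siRNA and 0.09 with G302V. RRP12 (chr10:99116115-99185833, minus strand), which acts in export of the small subunit, was at 29.2, 27.1, 23.6, 25.4, 21.9 and 24.9 RPKM, with control siRNA the lowest library.

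Of the other processome subunits, PWP2 (chr21:45527254-45551063, plus strand) was at 51.8 RPKM with GFP and at 44.1 RPKM with each of wild type, T275M and G302V, a difference of -0.23 for each. WDR3 was at 87.0, 79.8, 79.0, 73.9, 85.8 and 78.2 RPKM and NOP14 at 73.7, 70.3, 62.8, 64.1, 70.4 and 65.0 RPKM. Both had GFP highest, and the low library was G302V for WDR3 and T275M for NOP14. WDR43 (53.6, 52.4, 51.8, 49.3, 49.1 and 51.3 RPKM), WDR75 (48.3, 48.9, 47.8, 43.8, 48.7 and 46.2 RPKM), UTP15 (12.5, 12.4, 11.0, 10.5, 11.0 and 11.5 RPKM) and WDR36 (13.1, 12.4, 13.3, 12.9, 14.3 and 14.2 RPKM) completed the group. In the first 3 of these G302V was the lowest plasmid library, at -0.12, -0.14 and -0.23 against GFP, and in WDR36 the mutants were at 0.02 and -0.02, or both at -0.06 under median-ratio scaling.

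Of the factors that act late on the small subunit, NOB1 (chr16:69775774-69788829, minus strand), the nuclease that cuts the end of the 18S RNA, was at 69.9, 68.7, 64.7, 59.7, 64.3 and 54.1 RPKM. DDX3X siRNA was its lowest library, at -0.25 [-0.28 to -0.21], and G302V the lowest of the plasmid libraries, at -0.22. BYSL, the bystin protein, was at 41.5, 38.9, 35.6, 36.4, 39.6 and 35.5 RPKM. TSR1, which resembles a GTPase and sits on the late precursor, was at 57.1, 51.3, 50.1, 50.2, 55.3 and 49.3 RPKM, and with it the 3 constructs lay close together below GFP (-0.15, -0.19 and -0.18).

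PES1, BOP1 and WDR12 form the PeBoW complex of the large subunit. BOP1 was at 121, 103, 96.2, 106, 105 and 99.4 RPKM and PES1 (chr22:30972612-31003070, minus strand) at 114, 106, 94.6, 99.2, 102 and 94.8 RPKM. GFP was the highest library in both and T275M the lowest, at -0.33 and -0.26 against GFP. WDR12 (chr2:203738984-203879521, minus strand) did not follow them, with 44.5, 44.6, 40.6, 39.4, 46.5 and 39.0 RPKM: wild type was at 0.00 [-0.05 to 0.06] against GFP, or -0.09 under median-ratio scaling, and DDX3X siRNA was at -0.25 against its control.

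NOP16 (chr5:175810949-175815928, minus strand), a factor of early large-subunit precursors, was at 82.4, 67.3, 59.9, 65.0, 70.6 and 78.0 RPKM. All 3 constructs were below GFP, at -0.29, -0.45 [-0.52 to -0.38] and -0.34 [-0.41 to -0.27], and DDX3X siRNA was above its control at 0.14. RRP1 (chr21:45209394-45225174, plus strand), at 71.5, 60.1, 54.3, 55.3, 62.8 and 56.5 RPKM, gave -0.25, -0.39 and -0.36. RRS1, which helps the 5S RNA join the subunit, was at 33.2, 30.1, 26.3, 26.0, 31.9 and 32.0 RPKM, with both mutants low (-0.32 and -0.34) and a difference between the siRNA libraries of 0.00 [-0.05 to 0.06], or 0.07 under median-ratio scaling.

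GNL2 and GNL3 (nucleostemin) are GTPases of the large-subunit pathway. GNL2 (chr1:38032417-38061538, minus strand) was at 77.7, 78.8, 73.7, 63.6, 66.0 and 62.7 RPKM, and GNL3 (chr3:52715172-52728513, plus strand) at 209, 205, 199.7, 179, 171 and 158 RPKM. G302V was the low plasmid library in both, at -0.29 and -0.23 against GFP, while T275M was at -0.08 and -0.07. NOP2, a methyltransferase of the 28S RNA, was at 82.9, 77.4, 71.6, 69.9, 64.2 and 66.6 RPKM. All plasmid libraries exceeded both siRNA libraries, but median-ratio scaling put DDX3X siRNA above both mutants.

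Of the polymerase group, POLR1A and POLR1B encode the large catalytic subunits and UBTF binds the ribosomal DNA. POLR1A (chr2:86247339-86333278, minus strand) was at 17.6, 14.8, 15.0, 17.0, 19.3 and 20.3 RPKM. Wild type and T275M were low, at -0.24 and -0.22, whereas G302V was at -0.05 [-0.10 to 0.00], so G302V exceeded wild type by 0.19. POLR1B (chr2:113299492-113337395, plus strand) was at 21.1, 19.8, 19.7, 20.2, 21.2 and 23.5 RPKM and UBTF (chr17:42282401-42298994, minus strand) at 59.0, 56.5, 51.4, 55.4, 55.1 and 58.0 RPKM. DDX3X siRNA was above control siRNA in all 3 (0.07, 0.14 and 0.07), under median-ratio scaling too. The 12 further polymerase I genes of the wider list described below were mixed in this pair. Their median was 0.03, and the interval lay above 0 for 5 and below 0 for 4. LYAR (chr4:4269428-4291881, minus strand) was at 81.4, 84.1, 73.1, 66.8, 71.5 and 71.3 RPKM, high with GFP and wild type and lowest with G302V (-0.28).

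The length of the row moved with several of these values. The 36 rows are 535 to 9010 bases long, and across them Spearman's rho between length and the difference was 0.38 for the siRNA pair, -0.04 for wild type against GFP, 0.38 for T275M against GFP and 0.66 for G302V against GFP. Across the genes of 10 RPKM or more with rows of 200 bases or longer (6701 in the siRNA pair and 6702 in the others), it was 0.32, 0.07, 0.33 and 0.45, so the relation was not particular to ribosome biogenesis. Genes share library and depth, and these are descriptions across genes. The 8 genes with rows of 4000 bases or longer (UTP20, HEATR1, WDR36, RRP12, TSR1, POLR1A, POLR1B and UBTF) include the whole polymerase group and had a median of 0.09 with DDX3X siRNA, where all genes of that length had 0.07. The 14 genes of 200 to 2000 bases had -0.13, where all genes of that length had -0.10. The 14 genes of 2000 to 4000 bases, among them NOP56, DKC1 and NOLC1, had -0.09, where all genes of that length had -0.03. With depletion of DDX3X, the contrast between the polymerase group and the snoRNA particles thus ran with row length in the shortest and longest classes. The part of row length in it was not tested.

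With all 3 constructs the medians of the 36 genes by length class were below those of all genes of like length. For wild type the medians from the shortest to the longest class were -0.10, -0.08 and -0.10 against -0.01, 0.02 and 0.01 for all genes. With T275M they were -0.25, -0.19 and -0.18 against -0.08, 0.01 and 0.07 for all genes, and with G302V -0.28, -0.21 and -0.05 against -0.11, -0.02 and 0.09. After the median of all genes of like level and length was subtracted, the median of the 36 genes was -0.05 with wild type (25 of 36 below 0), -0.14 with T275M (32 of 36 below 0), -0.14 with G302V (35 of 36 below 0) and -0.01 with DDX3X siRNA (19 of 36 below 0).

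**Figure D4:**
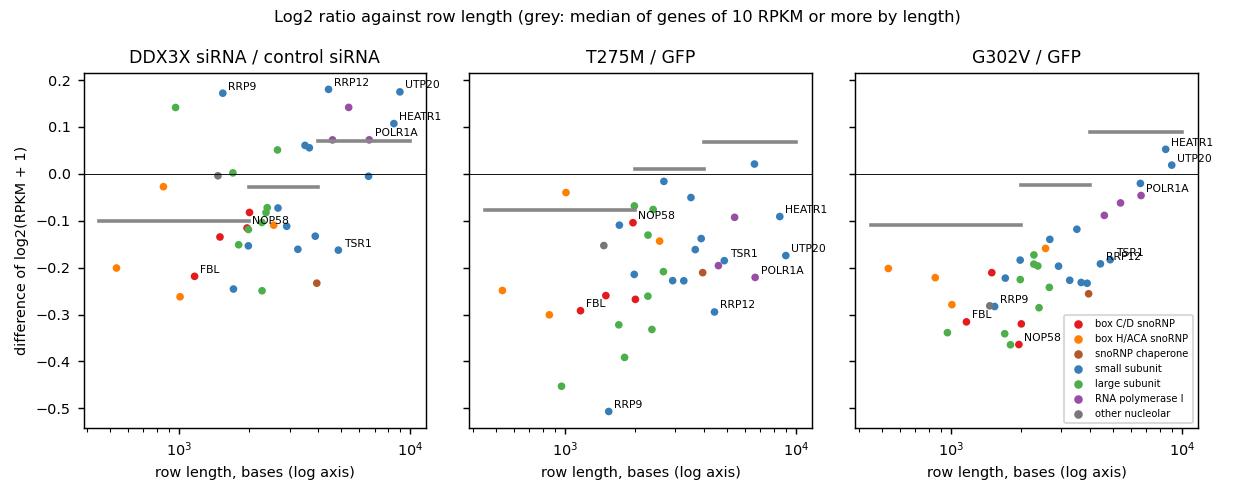
Difference of log2(RPKM + 1) of each gene (points, colored by group) against the length of its row in bases (log axis) in 3 comparisons; grey lines are the medians of genes of 10 RPKM or more in 3 length classes. Spearman's rho across the 36 genes is 0.38, 0.38 and 0.66, and with G302V the long rows of HEATR1 and UTP20 lie above 0.

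The wider pathway was taken from a list of 116 further ribosome biogenesis genes, all of which passed the filter. Their medians were -0.08 for DDX3X siRNA, -0.05 for wild type, -0.13 for T275M and -0.20 for G302V against their controls. The interval lay below 0 for 69, 55, 80 and 100 of them, against backgrounds of 46.5%, 33.8%, 38.1% and 41.3%. It lay above 0 for 25, 25, 12 and 3, against 33.4%, 32.9%, 33.6% and 28.1%. These interval backgrounds cover genes of 10 RPKM or more, whereas the list also holds lower genes such as MDN1. At 1.3-fold, 3 were lower (background 4.71%) and 1 higher (background 5.06%) with DDX3X siRNA, and 2 were higher with wild type (background 6.64%). With T275M 5 were lower (background 1.97%) and 2 higher (background 8.66%), and none passed with G302V (backgrounds 1.74% and 5.58%). With depletion, EMG1, a methyltransferase of the 18S RNA, was at -0.55 and FCF1, a factor of early cleavage, at -0.45. PIH1D1, which helps assemble box C/D particles, was at -0.44, and MDN1, the large ATPase of the 60S precursor, was at 0.66, on a row of 17400 bases.

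TAF1A and TAF1D, subunits of the selectivity factor that brings polymerase I to its promoter, went against the 36 genes with wild type and T275M. The 12 polymerase I genes of the wider list were mixed. Their median was 0.06 with wild type and 0.02 with T275M. The interval lay below 0 for 3 and 4 of them and above 0 for 6 and 5. In the 4 plasmid libraries, in the same order, TAF1A was at 7.96, 11.3, 12.7 and 7.55 RPKM and TAF1D at 39.5, 54.7, 55.6 and 39.0 RPKM. Both were higher with wild type (0.46 each) and T275M (0.61 and 0.48) than with GFP, and G302V differed from wild type by -0.53 and -0.48. With T275M, CD3EAP, a polymerase I subunit now named POLR1G (-0.43), NOL6 (-0.42) and IMP4 (-0.41), both of the processome, were the 3 furthest below GFP.

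Several of the 36 genes carry snoRNAs in their introns, and 18 small RNA rows lie inside 6 of them (NOP56 with 6, NOP58 and GNL3 with 3 each, DKC1, WDR43 and TSR1 with 2 each). They comprise 14 box C/D snoRNAs, 3 box H/ACA snoRNAs and 1 microRNA. Only 7 rows had 100 reads or more in every library, all of the box C/D type, and 6 rows stayed under 40 reads everywhere. The sequences of these 7 rows are shown because they are the RNAs that the FBL particle binds and that are made from the same transcripts as their host genes. They are from GRCh37, plus strand, as DNA, and capitals mark the first TGATGA, or else the first TGATG, which is the core of box C, and the last CTGA, which is box D. SNORD110 spans chr20:2634858-2634932, SNORD86 chr20:2636743-2636828, SNORD56 chr20:2637270-2637340 and SNORD57 chr20:2637585-2637656, all in NOP56. SNORD11B spans chr2:203156040-203156151 in NOP58, and SNORD19 (chr3:52723256-52723331) and SNORD19B (chr3:52724754-52724846) lie in GNL3. Letters of box C were not found in SNORD19 by this search.
SNORD110: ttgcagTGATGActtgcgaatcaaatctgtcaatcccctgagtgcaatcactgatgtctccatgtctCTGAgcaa
SNORD86: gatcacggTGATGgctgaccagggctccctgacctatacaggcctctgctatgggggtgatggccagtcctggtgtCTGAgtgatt
SNORD56: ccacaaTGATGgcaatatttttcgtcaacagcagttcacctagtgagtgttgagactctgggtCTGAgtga
SNORD57: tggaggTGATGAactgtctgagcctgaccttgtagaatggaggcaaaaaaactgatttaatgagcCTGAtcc
SNORD11B: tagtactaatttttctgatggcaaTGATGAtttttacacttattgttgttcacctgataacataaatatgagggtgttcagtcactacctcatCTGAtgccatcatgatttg
SNORD19: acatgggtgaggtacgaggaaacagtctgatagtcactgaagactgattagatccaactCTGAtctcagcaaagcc
SNORD19B: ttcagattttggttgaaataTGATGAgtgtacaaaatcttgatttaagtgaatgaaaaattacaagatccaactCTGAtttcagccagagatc

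SNORD86 had the highest values of these rows, at 446, 397, 326, 319, 316 and 291 RPKM. Both mutants were below GFP, at -0.45 [-0.55 to -0.35] for T275M and -0.49 [-0.59 to -0.38] for G302V, further than the host NOP56 at -0.27 and -0.32. SNORD57 was at 329, 288, 244, 220.2, 207 and 199.4 RPKM and SNORD56 at 141, 133, 107, 90.5, 114 and 96.6 RPKM. With G302V they were at -0.58 [-0.71 to -0.44] and -0.63 [-0.84 to -0.43]. SNORD110 was at 67.3, 61.4, 56.9, 51.9, 22.9 and 24.6 RPKM. Every plasmid library was above both siRNA libraries, as for SNORD86, SNORD57, SNORD19 and SNORD19B. G302V and control siRNA were close for SNORD86 (319 and 316 RPKM, an order that median-ratio scaling turns) and SNORD19B (85.6 and 81.2 RPKM). Intervals for these pairs were not worked out. The gap was wider for SNORD110: GFP exceeded control siRNA by 1.52 [1.21 to 1.83] where NOP56 differed by 0.35. SNORA51, a box H/ACA RNA of the same host with fewer reads, gave 1.45 in that comparison and was at 18.9, 17.5, 12.1, 9.53, 6.28 and 4.73 RPKM. All 7 rows were below GFP with each construct. The interval lay below 0 for 2 of 7 with wild type, 4 of 7 with T275M and 6 of 7 with G302V, where of the other 137 rows under 200 bases with 100 reads or more in every library 34.3%, 47.4% and 43.8% did so.

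Short rows as a class gave wide differences, however. Of the small RNA rows inside the 36 genes, 6 of the 12 that passed the filter were 1.3-fold lower with T275M and 6 of 13 with G302V, while of all rows under 200 bases 25.2% and 33.2% were. For GFP against control siRNA, 2 of 12 (SNORD110 and SNORA51) were past 2-fold higher, as were 11.7% of all such rows. Some snoRNA rows lie inside exons of other annotated transcripts of the host (5 such exons hold SNORD86), so reads of the snoRNA and of the host cannot be told apart there. The study names a TruSeq RNA kit for these libraries, and how well they keep RNAs of this size is not given in the sources used here. The values of these rows are therefore not read as amounts of mature snoRNA.

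**Figure D5:**
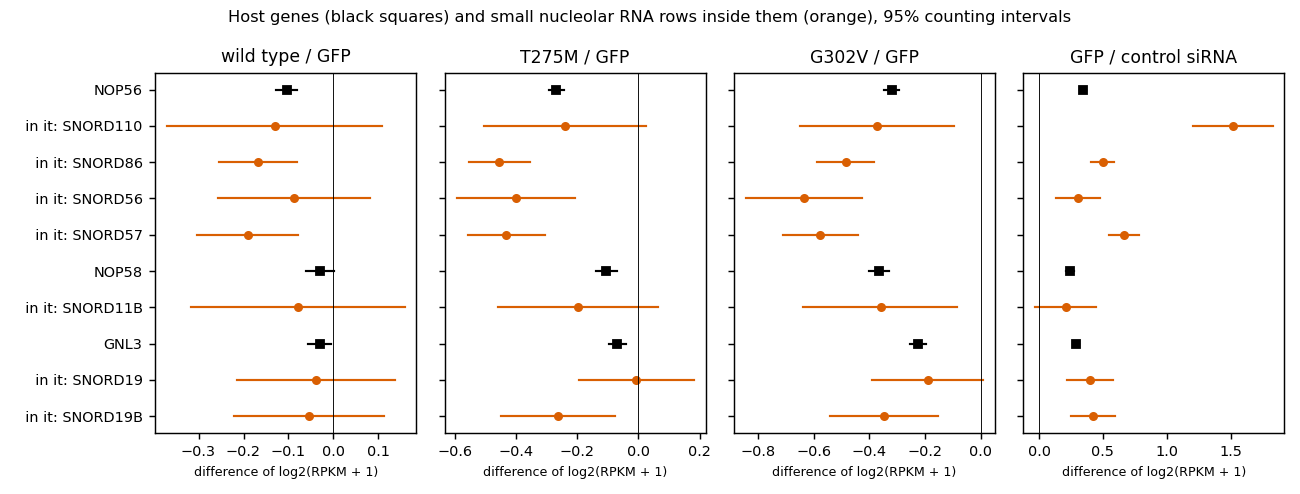
Difference of log2(RPKM + 1) with 95% counting intervals for 3 host genes (black squares) and the 7 snoRNA rows inside them with 100 reads or more in every library (orange circles), in 4 comparisons with their own horizontal scales. With G302V all 7 rows lie left of 0, and SNORD110 stands at 1.52 for GFP against control siRNA.

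A feature that the choice of genes did not use is the sequence at their starts. RefSeq promoters (GRCh38.p14, 250 bases before to 50 bases after the start) were matched for 30 of the 36 genes. CACGTG, the E-box bound by MYC and related factors and the same on both strands, occurred in 14 of 30 (46.7%), against 8.78% of 27305 genes with a promoter and 14.3% of 5053 genes with a mean of 10 RPKM or more. It was found for 1 of 2 box C/D genes matched, 2 of 4 box H/ACA genes, 6 of 13 small-subunit genes, 4 of 7 large-subunit genes, LYAR, and 0 of 3 polymerase genes. Of its 15 occurrences, 13 began within 40 bases of the start. The windows below are shown because they show the motif near the start in genes of the snoRNA particles and of both subunits, with CACGTG in capitals and positions in GRCh38.p14. The FBL window is chr19:39846358-39846383 (minus strand), that of NOP10 chr15:34343132-34343157 (minus), RRP9 chr3:51941894-51941919 (minus), UTP20 chr12:101280085-101280110 (plus), GNL3 chr3:52686028-52686053 (plus) and PES1 chr22:30591882-30591907 (minus).
FBL: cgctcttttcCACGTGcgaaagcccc
NOP10: aattgacgaaCACGTGacgcggtcgg
RRP9: gttcagctgcCACGTGagttctgcgg
UTP20: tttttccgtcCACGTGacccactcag
GNL3: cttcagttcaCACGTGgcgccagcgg
PES1: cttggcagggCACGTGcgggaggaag

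Another 4 motifs were looked for on both strands. CACGCG was in 26.7% of the matched genes against 24.5% of genes of 10 RPKM or more, CCGGAAG in 33.3% against 26.2%, GGAAGTGA in 16.7% against 6.99%, and CCAAT in 33.3% against 45.1%. These motifs were chosen with the data known, a match is not a binding site, and genes of one pathway are not independent draws. The medians of genes with and without the E-box were -0.21 and -0.15 with T275M, -0.23 and -0.18 with G302V, -0.08 and -0.08 with wild type, and -0.11 and -0.05 with DDX3X siRNA.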

How the data were processed

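RNA of HEK293T cells was sequenced in 6 libraries, 1 per group, with groups taken from the sample labels. The deposited values are RPKM per the file headers, although the methods of the study name FPKM. The authors trimmed reads with cutadapt, aligned them with BWA 0.5.5 to hg19 and RefSeq, removed duplicates, counted reads per gene and divided by row length and library total. Each table has 39618 rows. The treatment of reads that fit several near-identical copies is not given in the sources used here, and the kit does not mark strand, so overlapping antisense genes cannot be told apart.

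From these values, whole reads were recovered from the steps of RPKM times length. Of the 8649 to 10776 low rows per library that could be checked, 100% lay within 0.1 of a whole read, which gave depths of 54850000 (GFP), 62740000 (wild type), 47550000 (T275M), 43720000 (G302V), 67520000 (control siRNA) and 180870000 (DDX3X siRNA). Differences are of log2(RPKM + 1), which understates changes of low genes. Genes needed 1 RPKM and 10 reads in either library. Exact (Clopper-Pearson) 95% intervals of a read ratio cover counting error only. No test was possible with 1 library per group, so a call is 1.3-fold or 2-fold. Members, lists and the 1.3-fold limit were chosen with earlier results of these data known. All 36 members are named, and of the wider list at most the 3 furthest past 1.3-fold in each direction per comparison; small RNA rows and DDX3X are named as well. Gene coordinates are from GRCh37 (GENCODE lift). Alternatives were other pseudocounts, filters, scaling, totals without DDX3X and summed rows, and, added after seeing the data, subtraction of the median of genes of like level and length. The steps were tested on simulated data. Python 3.11.15, numpy 2.4.6, pandas 2.3.3 and scipy 1.17.1 were used.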

Additional observations from a re-analysis of the deposited data

How the results depend on the processing

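No paired analysis was possible because each group holds 1 library, and for the same reason no replicate could be left out. Pseudocounts of 0.1 and 10 RPKM, a minimum of 10 RPKM, a minimum of only 1 read, library totals without DDX3X and sums of rows per symbol left the medians of the 36 genes within the counting interval and the counts past 1.3-fold within 1.5 times in all 8 comparisons, except that with a pseudocount of 10 RPKM the count for GFP against control siRNA went from 1 to 0. Median-ratio scaling moved the median to -0.01 (-0.0092) with DDX3X siRNA, -0.18 with wild type and -0.29 with T275M, to -0.06 (-0.0609) for G302V against wild type, and to the other sign, 0.0427, for G302V against T275M. It gave counts past 1.3-fold against GFP of 1 (wild type), 8 (T275M) and 3 (G302V). The share of all genes past 1.3-fold under this scaling was not worked out. Subtracting the median of all genes of like level and length, chosen after seeing the data, gave -0.01 (-0.0052) with DDX3X siRNA, -0.14 with T275M, -0.14 with G302V and 0.0008, the other sign, for G302V against T275M. Why the scalings differ was not tested, and the cause was not tested for any of these shifts; DDX3X reads took 1.56%, 1.77% and 1.03% of the wild-type, T275M and G302V libraries. Depth limits the low snoRNA rows, not the 36 genes.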
